A study of Mus musculus with 2 samples.

Results

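The GDNF family of neurotrophic ligands and its receptors was described in TgS1 cells by 10 genes of the 55323 rows of the deposited expression table. They were taken by gene name, without a threshold on measured values, although earlier results of these data were known when the family was chosen: the ligands Gdnf, Nrtn, Artn and Pspn, the co-receptors Gfra1, Gfra2, Gfra3 and Gfra4, and the signalling receptors Ret and Ncam1. TgS1 is a mouse Schwann cell line, Schwann cells being the glia of peripheral nerves, and both groups carry the same human TTR V30M transgene (genotype TTR V30M tg in the labels). There were 2 libraries of total RNA, 1 from cells kept long-term in DMEM, a basal medium, and 1 from cells kept long-term in SCM, a medium that the sample labels do not spell out. The series text writes the first medium as S-DEMEM, and TgS1 is 1 line, so no result here extends to other Schwann cells.

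With 1 library per medium there was no replicate check, no SD and no p-value. Reads recovered from FPKM and gene length summed to 29085791 in DMEM and 36666676 in SCM. These are reads assigned to rows and not the sequencing depth. Levels are FPKM, reads scaled by gene length and library total. Intervals are 95% exact counting intervals of the reads behind a value. They cover counting error only, not variation between cultures. They may be too narrow even so, because PCR copies of a molecule may have been counted as separate reads. A count of 0 was given an upper limit of 3 reads. In RNA of whole cultures, fewer cells that express a gene and less RNA per cell cannot be told apart. Of 14 Schwann cell markers, 13 had at least 1 FPKM in 1 or both libraries, with a summed level of 4199 FPKM in DMEM and 4041 in SCM. Of 14 neuron markers 0 did, with sums of 0.724 and 0.567 FPKM and 0 reads for Rbfox3, Elavl4, Isl1 and Syt1. Endothelial markers had 0 of 7 at that level and skeletal muscle markers 0 of 8. Macrophage markers had 1 of 8, Cd68, with Adgre1 and Tyrobp at 0 reads. Fibroblast markers had 2 of 8, with Col1a1 and Lum at 0 reads, and summed to 120.1 FPKM in DMEM and 47.9 in SCM. Nearly all of this was Postn, which encodes the matrix protein periostin and was lower in SCM, at 119 and 44.6 FPKM, whereas the collagen gene Col1a2 was higher, at 0.742 and 3.15 FPKM. Perineurial markers had 4 of 7, with Cldn1 and Ocln at 0 reads, and summed to 72.6 and 83.7 FPKM, of which the integrin gene Itgb4 was higher in SCM, at 0.941 and 4.25 FPKM. Melanocyte markers had 1 of 6, Mitf. The part of these markers in the results was not tested.

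GDNF family ligands are secreted dimers that first bind a co-receptor, GFR alpha, anchored in the membrane by a lipid. Each ligand has a preferred co-receptor: GDNF binds GFR alpha 1, neurturin GFR alpha 2, artemin GFR alpha 3 and persephin GFR alpha 4. The loaded co-receptor then activates the receptor tyrosine kinase RET, and where RET is absent, GDNF bound to GFR alpha 1 can signal through the neural cell adhesion molecule NCAM. In nerve, Schwann cells that have lost contact with axons are a known source of GDNF for motor and sensory neurons.

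The pathway in TgS1 cells consisted of 1 abundant ligand gene, 2 abundant co-receptor genes and Ncam1, with no read on Ret. Gdnf was lower in SCM than in DMEM, Gfra1 and Ncam1 were higher, and Gfra2 was at a similar level in both. Of the 10 genes, 5 had at least 1 FPKM, and all 5 had it in both libraries: Gdnf, Gfra1, Gfra2, Gfra3 and Ncam1. Nrtn and Artn had reads but stayed under 1 FPKM in both, and Pspn, Gfra4 and Ret had 0 reads in both. On the scale of log2(FPKM + 1), 2 of the 5 measured genes were higher in SCM by 2-fold or more and 1 was lower by as much. Over all 12334 measured rows, 5.89% passed that limit, 3.10% as higher and 2.80% as lower. Of the 10081 measured rows that are protein-coding, 250 were higher and 145 lower, a smaller share. Because earlier results were known when the family was chosen, the members' share is a description. The median log2 ratio of SCM over DMEM was 0.998 over the 5 genes and -0.03 over all measured rows. Reads of the 10 genes made up 0.213% of the reads assigned to rows in DMEM and 0.523% in SCM.

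**Figure D1:**
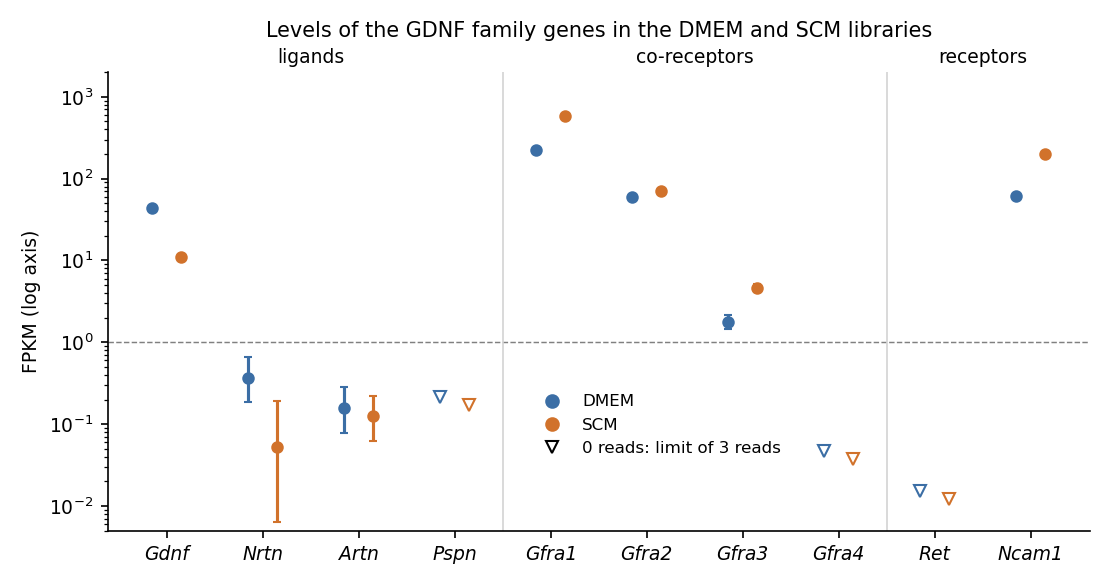
Level of each GDNF family gene in FPKM (log axis) in the DMEM library (blue) and the SCM library (orange), grouped as ligands, co-receptors and receptors. Bars are 95% exact counting intervals, open triangles mark the limit of 3 reads for genes with 0 reads, and the dashed line is the filter of 1 FPKM. Gdnf stands at 43.8 FPKM in DMEM and 11.0 in SCM, Gfra1 at 223 and 583, and Ret has 0 reads in both.

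Gdnf (ENSMUSG00000022144) encodes the founding ligand, a survival factor for motor, sensory and dopaminergic neurons. On GRCm38 it spans chromosome 15, 7810846 to 7837575, on the plus strand. The table lists 1 transcript for it, 3674 bases long. A RefSeq promoter stretch of Gdnf is shown, with that of Gfra1 below it, because these 2 genes carry the opposite differences of the ligand and its co-receptor. The sequences come from RefSeq on GRCm38.p6 and are written 5′ to 3′ on the gene's strand, ending at the base before the RefSeq start. That of Gdnf is chr15:7809798-7810047 on the plus strand, and the capitals mark the TATAAA motif, whose first base lies 31 bases before the start. This RefSeq start lies upstream of the GENCODE start at 7810846. The stretch therefore does not adjoin the start of the 1 listed transcript. That of Gfra1 is chr19:58455399-58455460 on the minus strand, 62 bases long because the bases further upstream belong to an annotated exon of another Gfra1 transcript.
Gdnf: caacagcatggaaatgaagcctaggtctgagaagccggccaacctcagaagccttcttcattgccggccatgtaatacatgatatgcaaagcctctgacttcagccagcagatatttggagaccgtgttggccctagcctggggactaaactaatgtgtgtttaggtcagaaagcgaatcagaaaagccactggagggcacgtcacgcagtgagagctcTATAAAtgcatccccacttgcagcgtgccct
Gfra1: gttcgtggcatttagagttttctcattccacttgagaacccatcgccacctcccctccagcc

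RefSeq promoter windows, 250 bases before to 50 after a start, were matched for 6 of the 10 genes, in 8 windows. TATAAA on the gene's strand, a motif chosen after the Gdnf window was seen, was in 1 of the 8, the upstream one of the 2 Gdnf windows, and in 8.32% of all 32851 windows. The AP-1 motif TGACTCA, searched on both strands, was in 0 of the 8 and in 5.20% of all windows. The SOX motif ACAAAG, also on both strands, was in 1 of the 8, a Gfra4 window, and in 18.7% of all windows. A match is a description of the letters, and its absence says nothing about binding outside these windows.

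Gdnf had 43.8 FPKM in DMEM (4678 reads) and 11.0 FPKM in SCM (1485 reads). It was thus the higher in DMEM, by 3.97-fold in plain FPKM (3.75 to 4.21) and by a log2 ratio of -1.90 for SCM over DMEM. Its rank by FPKM among all rows was 843 in DMEM and 3852 in SCM. Among 24 genes of secreted factors known from denervated Schwann cells, Gdnf included and the transcription factor gene Olig1 left out, Gdnf was at place 3 by FPKM in DMEM, below Ptn, the gene of pleiotrophin, and Gdf11. In SCM it was at place 6, below Ptn, Gdf11, Pdgfa, Vegfa and Clcf1. Clcf1, a cytokine gene of the CNTF group, had 25.3 FPKM in DMEM and 13.8 in SCM, so the order of Gdnf and Clcf1 was the opposite in the 2 libraries.

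The other 3 ligand genes were near or at the detection limit. Nrtn, which encodes neurturin, a ligand for parasympathetic and enteric neurons, had 11 reads in DMEM and 2 in SCM, at 0.370 and 0.0533 FPKM. The plain ratio of SCM over DMEM was 0.144, with a counting interval of 0.0155 to 0.661 that lay below 1 but was wide. Artn, which encodes artemin, a ligand for sensory and sympathetic neurons, had 11 reads in each library, at 0.157 and 0.125 FPKM. Its ratio of 0.793 had an interval of 0.312 to 2.02, so no difference was detectable at this depth. Pspn, the persephin gene, had 0 reads, which allows up to 0.218 FPKM in DMEM and 0.173 in SCM for its short transcript of 474 bases. Per length, Gdnf was 118-fold above Nrtn (66.1 to 237) and 278-fold above Artn (155 to 558) in DMEM. In SCM the quotients were 207 for Nrtn (57.1 to 1709) and 88.4 for Artn (49.2 to 177). Gdnf was therefore far above each of the other ligand genes in both media.

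Gfra1 (ENSMUSG00000025089), the co-receptor gene for GDNF, had the highest level of the 10 genes in both libraries. It spans chromosome 19, 58235604 to 58455909, on the minus strand of GRCm38. It had 223 FPKM in DMEM (35465 reads) and 583 FPKM in SCM (117021 reads), and so was higher in SCM by 2.62-fold (2.59 to 2.65), a log2 ratio of 1.38. Its rank among all rows was 103 in DMEM and 31 in SCM. An antisense long non-coding row, Gm16277, overlaps Gfra1 over 416 bases of exon. It had 3 reads in DMEM and 35 in SCM, 0.00846% and 0.0299% of the Gfra1 reads. No source used here says whether the authors' counting used strand, so reads of the overlapping stretch cannot be assigned to 1 row with certainty.

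Gfra2 (ENSMUSG00000022103, chromosome 14, 70890120 to 70979838 on the plus strand) encodes the neurturin co-receptor. It had 59.9 FPKM in DMEM (6163 reads) and 71.4 FPKM in SCM (9265 reads). The plain ratio of 1.19 (1.15 to 1.23) exceeded counting error but lay well within 2-fold, at a log2 ratio of 0.25. RNA of the neurturin co-receptor gene was thus abundant in both media while Nrtn RNA was close to 0. Protein was not measured.

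Gfra3 (ENSMUSG00000024366) encodes the artemin co-receptor and is known from sensory neurons and early Schwann cells. It had 1.79 FPKM in DMEM (104 reads) and 4.58 in SCM (335 reads). In plain FPKM it was 2.56-fold higher in SCM (2.04 to 3.22). On the scale of log2(FPKM + 1) the ratio was 0.998, just short of the limit of 1, so it was not called. Gfra4, the persephin co-receptor gene, had 0 reads, which allows up to 0.0476 FPKM in DMEM and 0.0378 in SCM. The 4 co-receptor genes summed to 284 FPKM in DMEM and 659 in SCM, and Gfra1 made up 78.3% and 88.5% of these sums.

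Ret (ENSMUSG00000030110, chromosome 6, 118151745 to 118197718 on the minus strand) encodes the receptor tyrosine kinase that all GFR alpha co-receptors use. It had 0 reads in both libraries, over a gene length of 6763 bases. This allows up to 0.0153 FPKM in DMEM and 0.0121 in SCM. With Ret taken at that limit, the FPKM of Gfra1 was 14600.1 times that of Ret in DMEM and 48175 times in SCM. Of 6713 stretches of 50 bases in the annotated Ret transcripts, 0 also occurred in a transcript of another gene. Among the 5 measured members, Gdnf and Gfra3 likewise shared 0 such stretches. Gfra1 shared 6.66% of its stretches, with Gm16277, while Ncam1 shared 3.06% and Gfra2 1.34%, each with several genes. The part of shared sequence in their levels was not tested. An absence of reads was common in this table, with 34.1% of 21821 protein-coding rows at 0 in both libraries.

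Ncam1 (ENSMUSG00000039542, chromosome 9, 49502136 to 49798925 on the minus strand) encodes the neural cell adhesion molecule, which also joins cells to each other independently of GDNF. It had 61.3 FPKM in DMEM (15456 reads) and 200.0 FPKM in SCM (63524 reads). It was higher in SCM by 3.26-fold (3.20 to 3.32), a log2 ratio of 1.69, the highest of the 5 measured genes, while that of Gdnf was larger in size with the opposite sign. Its rank among all rows was 548 in DMEM and 112 in SCM. The antisense row Gm11149 overlaps its exons over 417 bases and had 32 and 178 reads, 0.207% and 0.280% of the Ncam1 reads. The table lists 7 transcripts for Ncam1 under 1 value, so its isoforms were not resolved.

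**Figure D2:**
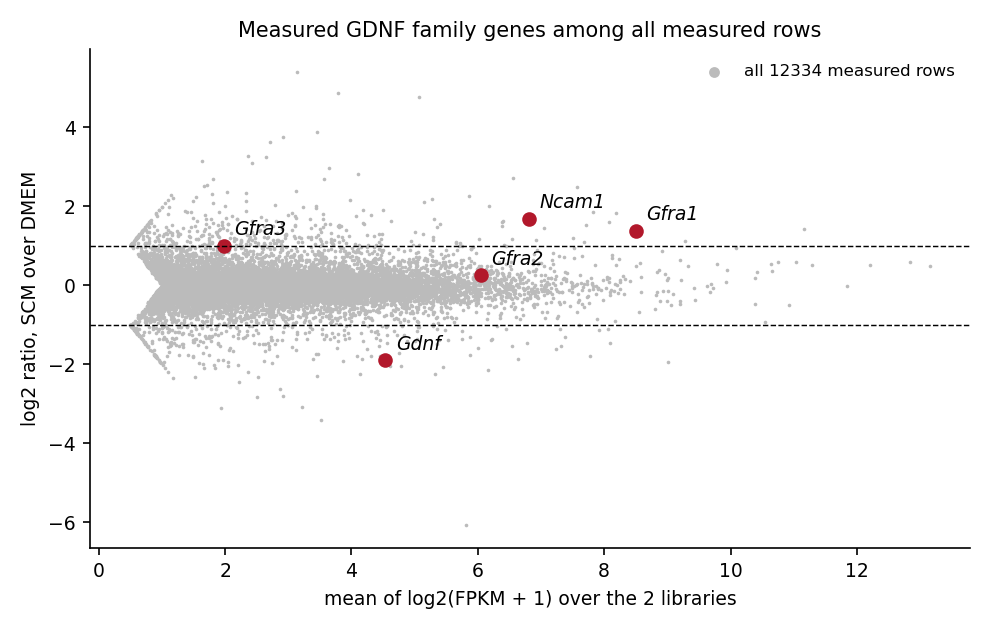
Log2 ratio of SCM over DMEM on the scale of log2(FPKM + 1) against mean level for all 12334 measured rows (grey) and the 5 measured GDNF family genes (red). Dashed lines mark 2-fold. Gdnf lies below the lower line at -1.90, Gfra1 and Ncam1 lie above the upper line at 1.38 and 1.69, Gfra3 lies on it at 0.998 and Gfra2 lies near 0.

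The order of levels per length was Gfra1, Ncam1, Gfra2, Gdnf, Gfra3 in both libraries, but the distances between neighbours differed. In DMEM, Ncam1 and Gfra2 were not apart beyond counting error, with a quotient of 1.02 (0.995 to 1.06). This holds for the gene lengths of the table only, 8664 bases for Ncam1 and 3539 for Gfra2. Lengths of the longest GENCODE transcripts, 6564 and 3472 bases, would raise the quotient. In SCM, Ncam1 was 2.80-fold above Gfra2 (2.74 to 2.86). Gfra2 was 1.37-fold above Gdnf in DMEM (1.32 to 1.42) and 6.48-fold above it in SCM (6.13 to 6.85). All other neighbours in this order were apart beyond counting error in both libraries.

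Levels of Gfra1 and Ncam1 relative to Gdnf differed by more between the media than the level of any of these genes did. The quotient of Gfra1 over Gdnf was 5.09 in DMEM (4.93 to 5.25) and 52.9 in SCM (50.2 to 55.7), 10.4-fold higher in SCM. That of Ncam1 over Gdnf was 1.40 in DMEM (1.36 to 1.45) and 18.1 in SCM (17.2 to 19.1), 12.9-fold higher. Both follow from the lower Gdnf level and the higher receptor level in SCM, so they are no separate observation. The 2 genes higher in SCM kept closer to each other, with Gfra1 over Ncam1 at 3.63 in DMEM (3.56 to 3.70) and 2.91 in SCM (2.89 to 2.94). The quotient of Gfra1 over Gfra2 was 3.72 in DMEM and 8.16 in SCM. The size of a quotient within a library depends on the gene lengths of the table, whereas its change between the libraries does not, since the lengths cancel.

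**Figure D3:**
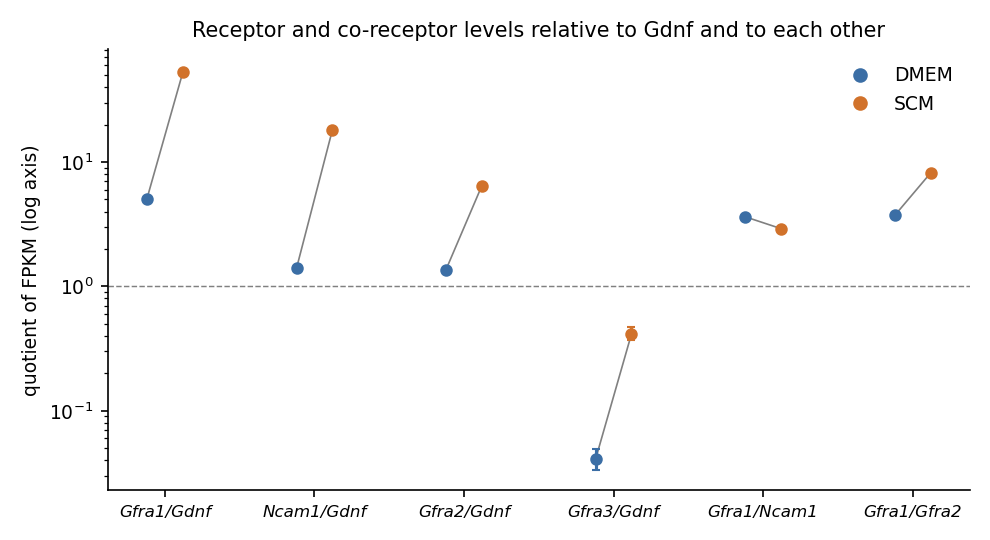
Quotients of FPKM between GDNF family genes (log axis) in the DMEM library (blue) and the SCM library (orange), with 95% exact counting intervals, most of them smaller than the points. The 4 quotients over Gdnf are higher in SCM, Gfra1 over Gdnf at 5.09 and 52.9, while Gfra1 over Ncam1 is at 3.63 and 2.91.

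The rest of the pathway and genes beside it were followed through 10 lists, called pathway lists here, with 195 genes, 120 of them measured. The lists of other trophic factors and of other TGF-beta superfamily genes are not part of GDNF signalling itself. Over all 10 lists, 10 genes were higher and 8 lower at 2-fold, 15% of those measured, against 5.89% of all rows. The median log2 ratio of the listed genes was 0.03. Among protein-coding rows alone, the counts of the lists were the same. There, 250 of 10081 measured rows were higher and 145 lower, a smaller share than over all rows. The lists were chosen with earlier results of these data known, so the share of 15% is a description. Among the genes named from them, Chl1, Gpc1, Sulf2, Pcsk6, L1cam, Ptk2, Pik3r1, Fosl1 and Tgfb3 overlap another measured row, and their reads may be shared with it. With a pseudocount of 3 FPKM, which shrinks ratios of low genes further, Sdc3, Pcsk6, Etv4, Fosl1, Igf1 and Bmp1 were no longer called.

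Genes that act before the receptor were mostly within 2-fold. Heparan sulphate chains on syndecans and glypicans bind GDNF at the cell surface. Of 19 genes for such carriers and their enzymes, 16 were measured, with 1 called higher, 1 called lower and a median of 0.06. Sdc3, the gene of syndecan 3, which is known to bind GDNF, stood at 47.6 FPKM in DMEM against 22.4 in SCM and was 2.12-fold lower (2.05 to 2.20). Sdc4, the gene of syndecan 4, went the other way, at 33.9 and 71.8 FPKM. Gpc1, the glypican 1 gene, had 395 and 208 FPKM at a log2 ratio of -0.92 and so was not called. Sulf2, a gene of an enzyme that removes sulphate from the chains, had 11.5 and 21.3 FPKM. Of 10 genes for processing and sorting of GDNF, 6 were measured, 2 called higher and 0 called lower, and the median log2 ratio was 0.14. Sort1, the gene of the sorting receptor sortilin, was 5.31-fold higher in SCM, at 1.63 FPKM in DMEM and 8.67 in SCM (interval 4.75 to 5.95). Pcsk6, a proprotein convertase gene, had 0.457 and 2.31 FPKM. Furin, the gene of a widely expressed convertase, had 17.4 and 16.0 FPKM, and Sorl1, the gene of the GDNF sorting receptor SorLA, had 0 reads in both. Pcsk7 and Sorcs2, also of this group, stayed within 2-fold.

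The group around NCAM had no shared direction. Of 12 genes for relatives of NCAM and for polysialic acid, the sugar chain that weakens NCAM adhesion, 5 were measured, 1 called higher and 0 called lower, and the median log2 ratio was 0.07. The higher gene was Chl1, an adhesion gene of the L1 family, at 3.48 and 34.1 FPKM. L1cam, the founder of that family, had 109 and 130 FPKM, Nrcam 13.4 and 7.97 FPKM, and the sialidase gene Neu1 8.34 and 7.67 FPKM. St8sia2 and St8sia4, which encode the polysialyltransferases of NCAM, had 0 reads in both libraries, as had Ncam2. Of 10 NCAM signalling partners, 8 were measured with a median of -0.18 and 0 genes past 2-fold. Fyn, the Src family kinase gene through which GDNF bound to NCAM is known to signal, had 24.6 and 22.5 FPKM in DMEM and SCM, and the focal adhesion kinase gene Ptk2 11.2 and 8.08. Gap43, a growth-associated membrane protein gene, had 17.7 and 9.63 FPKM, and the prion protein gene Prnp 28.0 and 45.0.

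Adaptors and kinases downstream of RET were expressed in these cells although Ret had no reads. These proteins also serve other receptors. Of 43 genes 36 were measured, 3 called higher and 0 called lower, and the median log2 ratio was 0.05. Pik3r1, the regulatory subunit gene of PI3 kinase, was 3.99-fold higher in SCM, at 10.7 FPKM in DMEM and 42.7 in SCM (interval 3.84 to 4.15). Rap1gap, an inhibitor gene of the small GTPase RAP1, had 1.41 and 6.02 FPKM, and the receptor phosphatase gene Ptprj 3.97 and 11.1. The adaptor genes Shc1, Frs2 and Gab1, which carry the RET signal to RAS and ERK, had 7.31 and 7.55, 10.8 and 10.5, and 14.8 and 13.2 FPKM. Grb7 and Grb10, other RET adaptor genes, had 0 reads in both. Pdlim7, which encodes a scaffold that binds RET, had the lowest log2 ratio of the group, at 8.03 and 4.18 FPKM, within 2-fold.

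Genes known to be induced by GDNF and RET in other cells went both ways. Of 27 genes 17 were measured, 2 called higher and 2 called lower, and the median log2 ratio was 0.23. The ETS transcription factor genes differed among themselves. Etv1 was 4.14-fold higher in SCM, at 2.04 FPKM in DMEM and 8.43 in SCM (interval 3.83 to 4.47), whereas Etv4 had 1.73 and 0.281 FPKM, 6.15-fold lower (4.18 to 9.29). Etv5 had 0.821 and 2.46 FPKM at a log2 ratio of 0.93, within the limit. Dusp6, an ERK phosphatase gene, was higher at 5.57 and 20.0 FPKM, and Id4, a gene of an inhibitor of differentiation, lower at 26.0 and 10.7 FPKM. Dusp6 and the ETS genes are known to respond to ERK downstream of many receptors.

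Transcription factors known to act on Gdnf or Ret were mostly within 2-fold or not measured. Of 31 genes 15 were measured, 0 called higher and 2 called lower, and the median log2 ratio was -0.06. The 31 include Ednrb, a receptor gene and not a transcription factor, which was not measured. The lower genes were Fosl2 and Fosl1, of the AP-1 family. Fosl2 was 3.25-fold lower in SCM (3.13 to 3.38), with 32.0 FPKM against 9.82, and Fosl1 had 4.24 and 1.14 FPKM. Jun, the AP-1 gene known to raise Gdnf in injured Schwann cells, had 236 and 168 FPKM, and Sox10, the Schwann lineage factor gene that also acts on Ret, had 126 and 113 FPKM, both within 2-fold. Of the neural crest factors of Ret, Phox2a and Tlx2 had 0 reads in both libraries. Hand2 had 1.74 and 3.26 FPKM, within 2-fold.

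Other trophic factor genes of denervated Schwann cells did not all differ the way Gdnf did. The list held 24 genes and 13 measured ones, both counts including the transcription factor gene Olig1, with 1 called higher, 2 called lower and a median of -0.22. Fgf5 had almost the ratio of Gdnf, with 8.35 FPKM in SCM against 33.3 in DMEM, and was 3.99-fold lower (3.67 to 4.33). The EGF family ligand gene Btc was lower at 18.0 and 6.77 FPKM, and Igf1 was higher at 1.03 and 3.89. Bdnf and Lif, 2 more injury-induced factors, had 2.97 and 3.87 FPKM and 5.48 and 7.62 FPKM. Shh, a known Jun-dependent gene of repair cells, was near 0, at 0.0121 FPKM in DMEM and 0 reads in SCM.

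**Figure D4:**
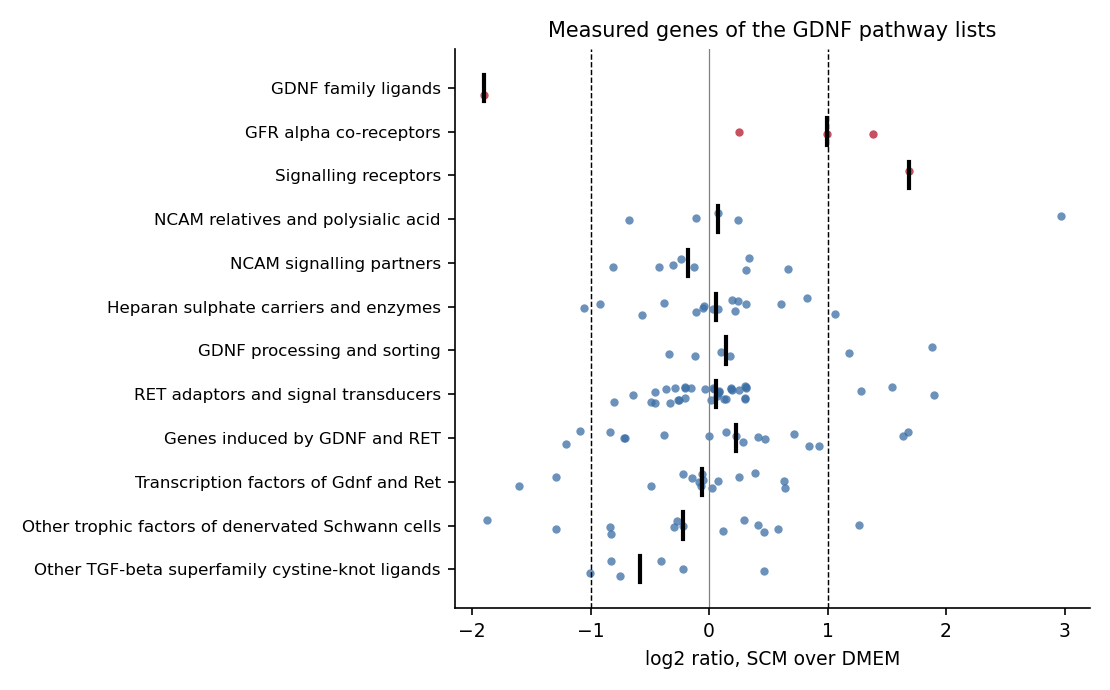
Log2 ratio of SCM over DMEM for each measured gene of the GDNF family groups (red) and of the pathway lists (blue), with the group's median as a black bar and 2-fold as dashed lines. Gdnf lies at -1.90 and the receptor genes at 0.25 to 1.69, while the medians of the pathway lists lie between -0.58 and 0.23.

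Markers of the Schwann cell's own state also differed between the libraries. Among the 13 measured Schwann markers the median log2 ratio was 0.26, with 9 above 0 and 4 below. Of these markers, 4 were called higher in SCM and 0 lower, against 3.10% and 2.80% of all measured rows. Among the markers called higher were Dhh, a Schwann cell ligand gene, at 7.49 and 23.0 FPKM, the myelin gene Pmp22 at 6.78 and 16.0, and Gfap at 0.530 and 3.17. Ngfr, at 2061 and 1079 FPKM, and another myelin gene, Mbp, at 83.7 and 73.5, were within 2-fold. The part of these differences in the levels of Gdnf, Gfra1 and Ncam1 was not tested.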

How the data were processed

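RNA libraries of TgS1 cells, 1 per medium, were made with a stranded total RNA kit and converted for DNBSEQ, per the labels' protocols. The authors deposited FPKM values for 55323 rows with gene length and annotation, per the file headers. Tools listed in the submitters' processing notes are featureCounts 2.0.1, STAR 2.7.9a, cutadapt 3.1, Trimmomatic 0.39 and Trim Galore, with builds GRCm38.p6 and mm10. Parameters and strand setting: not given in the sources used here. Columns were matched to samples by medium name. They carry the numbers 1 (DMEM) and 3 (SCM).

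FPKM times length was a whole multiple of 1 step in each library, which returned whole reads (100% of rows within 0.01 of a read). Reads served for intervals and floors. They entered no count model. Rows that reached 1 FPKM in SCM, DMEM or both were compared by the log2 ratio of FPKM + 1, SCM over DMEM, and called at 2-fold. The pseudocount understates ratios of low genes. Plain ratios have exact (Clopper-Pearson) intervals. Of duplicate symbols, the row with the higher level was used. Positions are from GENCODE M21 on GRCm38, by gene identifier. Of 52046 matched identifiers, 1457 had the same position in the table and 50022 the same span elsewhere, so positions of the table are not printed.

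The members and lists were chosen with earlier results of these data known. The genes named were all members, up to 4 measured genes per list with the largest absolute log2 ratio, and the 3 protein-coding genes nearest to Gdnf, Gfra1 and Ncam1. Others, such as Jun, Sox10, Fyn, Furin, Etv5, Shc1, Frs2, Gab1, Bdnf, Lif, Shh, Ngfr, Clcf1 and genes at 0 reads, were named for their role after values were seen. Some genes of the lists are not reported here by name, though counts and medians include them. Intervals and calls were run on simulated reads drawn from the same counting model, without variation between cultures. Such a run cannot show how they hold for real cultures. The steps ran in Python 3.11.15 with pandas 2.3.3, numpy 2.4.6, scipy 1.17.1 and matplotlib 3.10.9.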

Additional observations from a re-analysis of the deposited data

How the results depend on the processing

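Gdnf, Gfra1 and Ncam1 kept their direction and stayed past the limit under the 5 settings that alter a log2 ratio: both pseudocounts, both scalings and TPM. They also passed the stricter filter and the counting interval. Their log2 ratios ranged from -2.03 to -1.74, from 1.32 to 1.42 and from 1.64 to 1.72. Gfra2 stayed within 2-fold, at 0.19 to 0.28, also at a limit of 1.5-fold. Gfra3, at the limit, ranged from 0.66 to 1.31. It was not in the filter of 5 FPKM, and it passed the limit with a pseudocount of 0.1 (1.31), scaling to the median ratio (1.03), a total without the 10 most abundant rows (1.02), TPM (1.19) and 1.5-fold (0.998). In TPM, where values were larger in both libraries, 2 members were lower, Nrtn (2 reads in SCM) beside Gdnf. The counts over all rows, 382 higher and 345 lower, became 681 and 625 with a pseudocount of 0.1, 148 and 131 with 3, 210 and 165 with a filter of 5 FPKM, 1011 and 1145 in TPM, 974 and 928 at 1.5-fold and 250 and 145 among protein-coding rows. The 10 higher and 8 lower genes of the pathway lists became 18 and 20 at 1.5-fold, and 4 were lower with a pseudocount of 3. Without division by gene length, Gfra1 over Gdnf was 7.58 in DMEM and 78.8 in SCM, and Ncam1 over Gdnf 3.30 and 42.8. With the longest GENCODE transcript as length, an alternative added after seeing the data, these were 6.002, 62.4, 1.85 and 23.9. No paired analysis was possible because there was 1 library per medium, and for the same reason no library could be left out. Depth limits Nrtn, Artn and the genes with 0 reads.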

Other observations

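GDNF family ligands are distant members of the TGF-beta superfamily, which share a cystine-knot fold. Of 18 other genes listed for that superfamily, 6 were measured, 0 were higher in SCM and 1 lower at 2-fold, with a median log2 ratio of -0.58, against -0.03 over all measured rows. The lower gene was Bmp1, which encodes a matrix protease and not a ligand, with a log2 ratio of -1.001, at the limit, from 21.3 FPKM in DMEM and 10.2 in SCM. It was not called with a pseudocount of 3 FPKM or with either other scaling. Tgfb2 and Tgfb3, both ligand genes, had 13.0 and 6.89 FPKM and 9.86 and 5.43 FPKM, within 2-fold. Tgfb3 overlaps Ttll5 on the opposite strand, which had 2249 and 2019 reads against 970 and 674 for Tgfb3, so its level is uncertain. Gdf11 was the measured ligand gene above 0, at 49.3 and 68.3 FPKM. Of the 3 distant relatives of the family itself, Gfral and Gas1, receptor genes related to GFR alpha, had 0 reads in both libraries. Gdf15, the ligand gene for GFRAL, had 0 reads in DMEM and 15 in SCM, at 0.221 FPKM.

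The protein-coding genes with levels nearest to those of Gdnf in both libraries were Hmox1, the haem oxygenase gene, Ccl2, a chemokine gene, and Lamb2, a laminin chain gene. The distance, taken over the 2 values of log2(FPKM + 1), was 0.14 for Hmox1, 0.15 for Ccl2 and 0.29 for Lamb2. Nearest to Gfra1 were Selenop, a selenoprotein gene, Gm20594, a predicted gene, and Gpm6b, a membrane proteolipid gene, at distances of 0.53, 0.59 and 0.62. Nearest to Ncam1 were the desaturase gene Scd1, Tmod2 and Gas7, at 0.37, 0.42 and 0.52. With 2 libraries, likeness of 2 values says nothing of shared control.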
